A study of Saccharomyces cerevisiae with 12 samples.

Results

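The genes described here are 32 members of the yeast tRNA charging machinery, chosen by name from the probes of the array: 19 genes of the cytosol and 13 genes of mitochondria, out of 6019 genes and unnamed open reading frames measured. The cytosolic genes encode 18 aminoacyl-tRNA synthetases or their subunits and the cofactor *ARC1*. Each of the 32 was represented by 1 probe and had a value in all 6 arrays, so no member was lost to a filter. RNA of wild-type *S. cerevisiae* JN54 exposed to 43°C for 60 or 30 min, labelled with Cy5, was hybridized to cDNA microarrays. Each array also received Cy3-labelled RNA from control cells that stayed at 30°C for as long. JN54 is a MATa strain that carries *his3*, *leu2*, *ura3*, *trp1* and *lys2* mutations, which the heat-shocked and the control cells share, and all cells were grown in rich YPD medium. There were 3 experiments at each time, described by the study as independent. Separate cultures are not mentioned, so the p-values measure only the spread between these arrays. The values are ratios of heat-shocked to control cells, read as log2 values. The base was inferred, and if the logarithms were natural every fold given here would be larger. The file holds no levels, so no marker of strain or cell type could be checked, and no gene's abundance can be set against another's. All ratios are relative to the typical gene of the array, since array medians lay between -0.01 and 0.03.

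An aminoacyl-tRNA synthetase attaches an amino acid to the tRNAs that carry its anticodons, and this charging step comes before every round of elongation on the ribosome. Yeast keeps separate sets of synthetases for the cytosol, where most protein is made, and for mitochondria, where the few proteins encoded by mitochondrial DNA are made. All of these enzymes are encoded in the nucleus. Some genes, such as *ALA1*, *GRS1*, *HTS1* and *VAS1*, supply both compartments from 1 locus through different start sites, and here they count with the cytosolic genes. *ARC1* encodes no synthetase but a tRNA-binding protein that holds the methionyl enzyme Mes1p and the glutamyl enzyme Gus1p in a complex.

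The direction of the ratio was checked with 4 heat-shock genes. *HSP12*, *SSA4*, *HSP26* and *HSP104* all rose at both times, from 2.83-fold (*HSP104*) to 27.1-fold (*HSP12*) at 60 min and from 2.96-fold to 20.5-fold in the same genes at 30 min (adjusted p of 0.0116 or lower at 60 min and 0.0120 or lower at 30 min, limma). Arrays of 60 min resembled each other less (correlations across genes of 0.598 to 0.736) than arrays of 30 min (0.774 to 0.853). The SD of 15 of the 19 cytosolic genes and of 7 of the 13 mitochondrial genes was larger at 60 min than at 30 min, with medians of 0.49 at 60 min against 0.26 at 30 min for the cytosolic genes. The test uses 1 spread for both times, which may understate the p-values of 60 min and overstate those of 30 min. With each time fitted alone, 16 cytosolic genes fell at 60 min and 18 at 30 min, where 755 and 1443 of the 6019 features were called lower, against 1096 and 960 in the fit of both times.

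Nearly all cytosolic genes fell after mild heat shock, and the mitochondrial genes, with 1 exception, did not pass the test in either direction. Of the 19 cytosolic genes, 18 fell after 60 min and 17 after 30 min, and 0 rose at either time (adjusted p under 0.05 over all features, limma). Over all 6019 features, 18.2% were called lower at 60 min and 15.9% at 30 min, and 15.6% and 10.7% were called higher. Of the 13 mitochondrial genes, 1 fell and 0 rose after 60 min, and 0 fell and 0 rose after 30 min. At an unadjusted p under 0.05, 19 cytosolic genes were lower at 60 min and 18 at 30 min, 1 mitochondrial gene was lower at 60 min, 0 mitochondrial genes were lower at 30 min, and 0 genes of either set were higher. By that looser limit 44.9% of all features differed from 0 at 60 min and 40.5% at 30 min. Leaving out the array of experiment 2 of 60 min left 14 cytosolic genes that fell at 60 min (with 13.5% of all features called lower), and leaving out experiment 2 at both times left 12 (with 8.99% called lower).

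**Figure D1:**
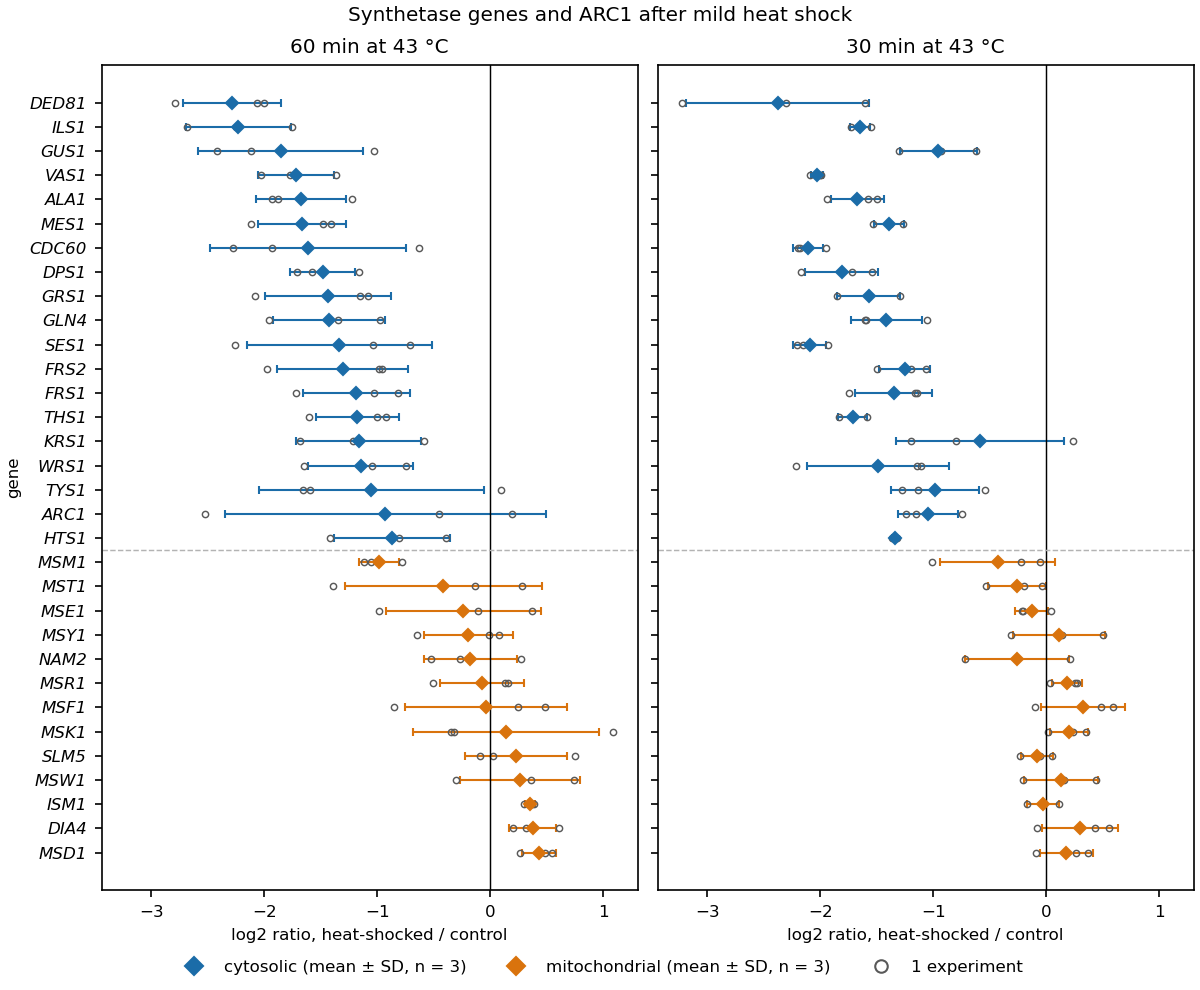
Log2 ratio of heat-shocked to control cells (x axis) for each of the 32 genes (y axis), at 60 min (left) and 30 min (right). Open circles are single experiments, and diamonds with bars are means and SDs of 3 experiments, for 19 cytosolic genes above the dashed line and 13 mitochondrial genes below it. All 19 cytosolic means lie below 0 at both times, and the mitochondrial means lie between -0.98 and 0.43 at 60 min and between -0.43 and 0.33 at 30 min.

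The separation of the sets was present in each array. The median log2 ratio of the cytosolic genes was -1.22, -1.96 and -1.04 in experiments 1, 2 and 3 of 60 min, against -0.10, 0.37 and -0.01 for the mitochondrial genes. In the 3 experiments of 30 min it was -1.58, -1.59 and -1.29 for the cytosolic genes, against -0.09, 0.21 and 0.03 for the mitochondrial genes. The cytosolic median was thus the lower one in 6 of 6 arrays, and experiment 2 of 60 min had the widest gap. The gap, cytosolic minus mitochondrial, averaged -1.49 ± 0.73 (SD, n = 3) at 60 min and -1.54 ± 0.24 (SD, n = 3) at 30 min. These are descriptions of chosen genes, for which no test was made. The median mean log2 ratio over all features was 0.01 at 60 min and -0.01 at 30 min.

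Single genes of both sets overlapped in some arrays. In experiment 2 of 60 min and in experiments 2 and 3 of 30 min, every cytosolic gene lay below every mitochondrial gene. In the other arrays a part of the 247 possible combinations of a cytosolic and a mitochondrial gene ran the other way, and the cytosolic gene was lower in 87.9% of them in experiment 1 of 60 min, in 92.7% in experiment 3 of 60 min and in 93.9% in experiment 1 of 30 min. The cytosolic genes that reached highest in these 3 arrays were *ARC1* (0.19), *HTS1* (-0.39) and *KRS1* (0.24), and the mitochondrial genes that reached lowest were *MST1* (-1.39), *MSM1* (-1.12) and again *MSM1* (-1.01). Of the features on each array, between 4.54% and 12% lay below the cytosolic median and between 45.1% and 63.1% below the mitochondrial median.

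**Figure D2:**
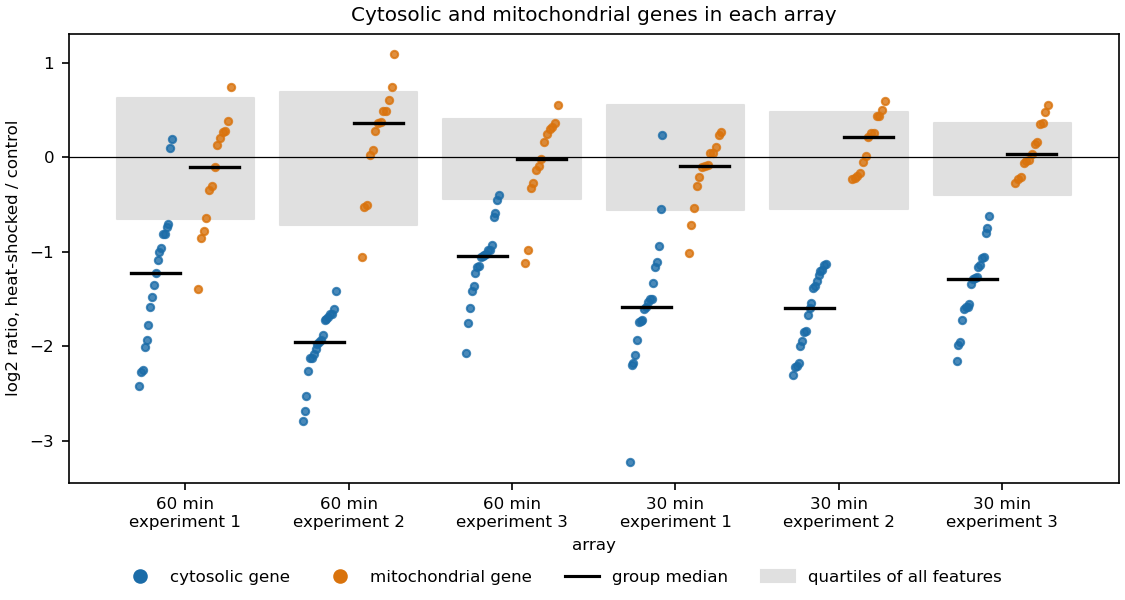
Log2 ratio of heat-shocked to control cells (y axis) of each cytosolic and mitochondrial gene in each of the 6 arrays (x axis). Black lines are the medians of the 19 cytosolic and the 13 mitochondrial genes, and grey boxes span the quartiles of all features. The cytosolic median lies below the lower quartile of all features in every array, and the mitochondrial median lies inside the quartiles in every array.

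By the rule of the methods, over 2-fold in at least 2 of the 3 experiments, 16 of the 19 cytosolic genes were down at 60 min and 17 at 30 min, where 10.5% and 10.2% of all features were down. Of the mitochondrial genes, 1 was down at 60 min and 0 at 30 min by this rule. No member was up at either time, where 6.89% and 4.42% of all features were up. Of the 19 cytosolic genes, 16 had a ratio below 0 in all 6 arrays, which was so for 21.4% of all features. *KRS1*, *TYS1* and *ARC1* each had 1 array above 0. Of the 13 mitochondrial genes, only *MSM1* was below 0 in all 6 arrays, and 42 of the 78 values of this set were above 0.

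The 3 lowest mean ratios of the cytosolic set belonged to *DED81*, *ILS1* and *GUS1* at 60 min and to *DED81*, *CDC60* and *SES1* at 30 min, with *VAS1* next at both times. Except for *GUS1*, described further on, they charge tRNAs with asparagine (*DED81*), isoleucine (*ILS1*), leucine (*CDC60*), serine (*SES1*) and valine (*VAS1*). *DED81* (YHR019C) had log2 ratios of -2.005, -2.79 and -2.06 in the experiments of 60 min and -3.22, -2.31 and -1.60 in those of 30 min. Its transcript was thus at 20.5% of the control level at 60 min and at 19.2% at 30 min, taken from the mean ratios, and it was the lowest of the 32 genes in mean ratio at both times. *ILS1* (YBL076C) had -2.25, -2.68 and -1.76 at 60 min and -1.73, -1.66 and -1.55 at 30 min, so its 3 values of 60 min lay below all 3 of 30 min. *ILS1* fell at both times, with means of -2.23 ± 0.46 (SD, n = 3) at 60 min and -1.65 ± 0.09 (SD, n = 3) at 30 min (adjusted p = 7.32e-05 and 0.000566, limma).
*SES1* (YDR023W) had -0.71, -2.26 and -1.04 at 60 min and -1.93, -2.21 and -2.15 at 30 min. *CDC60* (YPL160W) had -2.27, -1.93 and -0.63 at 60 min and -2.19, -2.18 and -1.95 at 30 min. Both genes fell at both times (adjusted p of 0.00503 and 0.000549 for *SES1*, and of 0.00213 and 0.000587 for *CDC60*, limma). Their 30 min values were close together and their 60 min values were spread, with 1 experiment of 60 min less than 2-fold down in each gene. The 60 min call of *SES1* was lost when experiment 2 of both times was left out (adjusted p = 0.0594). *VAS1* (YGR094W), with values from -2.02 to -1.36 at 60 min and from -2.09 to -1.99 at 30 min, was over 2-fold down in 6 of 6 arrays and had the smallest adjusted p of the members at 30 min (0.000149).

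The 3 highest mean ratios of the cytosolic set were those of *HTS1*, *ARC1* and *TYS1* at 60 min and of *KRS1*, *GUS1* and *TYS1* at 30 min. At the time of that rank, whether each of these genes passed the test changed when an experiment was left out at 1 or both times. The calls of *GUS1* at 60 min and of *HTS1* at 30 min were kept with any experiment left out. *ARC1* (YGL105W) had 0.19, -2.52 and -0.46 at 60 min and -1.16, -1.24 and -0.75 at 30 min, and did not pass the test at either time (adjusted p = 0.100 at 60 min and 0.0784 at 30 min, limma). Its values of 60 min had the largest SD of the 32 genes, 1.42, and leaving out its experiment 1 gave a mean of -1.49 (adjusted p = 0.0163), while leaving out experiment 2 gave -0.13 (adjusted p = 0.729). Since both times share the spread, the adjusted p of *ARC1* at 30 min was 0.0251 in the first case and 0.00575 in the second.
*KRS1* (YDR037W), the lysyl enzyme, had -1.22, -1.69 and -0.59 at 60 min and 0.24, -1.20 and -0.80 at 30 min. It fell at 60 min (mean log2 ratio -1.16 ± 0.55, SD, n = 3, adjusted p = 0.0130, limma), a call that did not survive leaving out experiment 2 (adjusted p = 0.0814), and did not pass at 30 min (mean -0.59 ± 0.74, SD, n = 3, adjusted p = 0.163). Experiment 1 of 30 min was the 1 array in which *KRS1* was above 0, and with that array left out it still did not pass at 30 min (adjusted p = 0.0808), but did with experiment 1 left out at both times (adjusted p = 0.0355).
*TYS1* (YGR185C), the tyrosyl enzyme, had 0.10, -1.66 and -1.60 at 60 min and -0.54, -1.13 and -1.28 at 30 min. It fell at both times (adjusted p = 0.0302 at 60 min and 0.0465 at 30 min, limma), with experiment 1 the least changed at each time. Leaving out experiment 2 or 3 ended the call of *TYS1* at 60 min (adjusted p = 0.170 and 0.161), and leaving out any 1 of the 3 experiments ended that at 30 min (adjusted p = 0.0944, 0.217 and 0.183 for experiments 1, 2 and 3).

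*GUS1* and *HTS1* each fell at both times but stood at opposite ends of the order of 60 min. *GUS1* (YGL245W), which charges glutamate, had -2.42, -2.12 and -1.03 at 60 min and -0.93, -1.30 and -0.62 at 30 min, with mean log2 ratios of -1.86 ± 0.73 (SD, n = 3, adjusted p = 0.000677, limma) and -0.95 ± 0.34 (SD, n = 3, adjusted p = 0.0271). It was thus the third lowest cytosolic gene at 60 min and the second highest at 30 min, where leaving out any 1 of the 3 experiments ended its call (adjusted p = 0.127, 0.208 and 0.0552 for experiments 1, 2 and 3). *HTS1* (YPR033C), which makes the histidyl enzyme of both compartments, had -0.81, -1.42 and -0.39 at 60 min and -1.32, -1.37 and -1.34 at 30 min. *HTS1* had a mean of -0.87 ± 0.51 (SD, n = 3, adjusted p = 0.0143, limma) at 60 min, where leaving out experiment 2 ended the call (adjusted p = 0.0789), and -1.34 ± 0.02 (SD, n = 3, adjusted p = 0.00207) at 30 min.
The remaining cytosolic genes, *ALA1*, *FRS1*, *FRS2*, *GRS1*, *MES1*, *GLN4*, *DPS1*, *THS1* and *WRS1*, fell at both times, with mean log2 ratios from -1.68 to -1.15 at 60 min and from -1.81 to -1.25 at 30 min. They charge alanine, phenylalanine (the pair *FRS1* and *FRS2*), glycine, methionine, glutamine, aspartate, threonine and tryptophan. *FRS1* and *FRS2*, which encode the subunits of 1 enzyme, had means of -1.19 ± 0.47 and -1.31 ± 0.58 at 60 min and of -1.35 ± 0.34 and -1.25 ± 0.22 at 30 min (SD, n = 3), differences smaller than their spread. Leaving out experiment 1 ended the call of *FRS2* at 30 min (adjusted p = 0.0519, limma). At 60 min, leaving out experiment 2 ended that of *WRS1* (adjusted p = 0.0588), and so did leaving out experiment 3 at both times (adjusted p = 0.0518), while leaving out experiment 2 at both times ended that of *FRS1* (adjusted p = 0.0581).

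Features that the choice of genes did not use gave no clear division within the cytosolic set. Synthetases belong to 2 unrelated structural classes, and the array-wise median of the 8 class I genes was -1.61 ± 0.39 (SD, n = 3) at 60 min, against -1.29 ± 0.44 for the 10 class II genes. At 30 min the order was turned, with -1.49 ± 0.19 for class I and -1.60 ± 0.12 for class II. The 4 genes named above as supplying both compartments had medians of -1.52 ± 0.39 at 60 min and -1.63 ± 0.23 at 30 min. These were close to the -1.42 ± 0.47 and -1.50 ± 0.20 of the 14 other synthetase genes of the cytosolic set. All 4 fell at both times, so these 4 genes were with the other cytosolic genes in their ratios. Each had 1 probe, so transcripts from its different start sites were not told apart. The genes of the Arc1p complex, *ARC1*, *MES1* and *GUS1*, had medians of -1.54 ± 0.55 at 60 min and -1.07 ± 0.29 at 30 min. None of these differences within the set was tested.

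*MSM1* (YGR171C), the methionyl enzyme of mitochondria, was the only mitochondrial member that passed the test. It had log2 ratios of -0.78, -1.05 and -1.12 at 60 min and -1.01, -0.23 and -0.06 at 30 min. Its mean was -0.98 ± 0.18 (SD, n = 3, adjusted p = 0.00890, limma) at 60 min, or 50.5% of the control level, and -0.43 ± 0.51 (SD, n = 3, adjusted p = 0.187) at 30 min. The 3 experiments of 60 min lay together, while at 30 min only experiment 1 reached their range. The call at 60 min held with each experiment of 60 min left out, but not with experiment 2 or 3 left out at both times (adjusted p = 0.0715 and 0.0637). A difference between the times was not shown for *MSM1* (-0.55, 95% interval -1.28 to 0.17, adjusted p = 0.648).

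The 12 other mitochondrial genes had mean log2 ratios between -0.42 and 0.43 at 60 min. *MST1* (YKL194C), the threonyl enzyme, had -1.39, 0.28 and -0.14 at 60 min and -0.54, -0.20 and -0.04 at 30 min, so that its low mean of 60 min came from experiment 1. *MSE1* (YOL033W), the glutamyl enzyme, had -0.10, 0.37 and -0.98 at 60 min and 0.04, -0.22 and -0.21 at 30 min. *NAM2* (YLR382C), the leucyl enzyme, which also takes part in the splicing of mitochondrial introns, had 0.27, -0.53 and -0.27 at 60 min and -0.71, 0.21 and -0.27 at 30 min. All of these 3 genes had arrays on both sides of 0, and their adjusted p lay between 0.297 and 0.734 at both times (limma).
At the other end were *MSD1*, *DIA4* and *ISM1*, the aspartyl, seryl and isoleucyl enzymes. *MSD1* (YPL104W) had 0.26, 0.49 and 0.55 at 60 min and -0.09, 0.26 and 0.37 at 30 min. *DIA4* (YHR011W) had 0.20, 0.61 and 0.32 at 60 min and -0.08, 0.43 and 0.55 at 30 min. *ISM1* (YPL040C) had 0.39, 0.37 and 0.30 at 60 min and 0.11, -0.17 and -0.03 at 30 min. These 3 genes were above 0 in all 3 experiments of 60 min, but did not pass the test there (adjusted p = 0.120, 0.198 and 0.181, limma).
*MSF1* (YPR047W), the phenylalanyl enzyme, had the highest mean of the set at 30 min, with values of -0.10, 0.59 and 0.48, and had -0.85, 0.49 and 0.25 at 60 min. *MSK1* (YNL073W), the lysyl enzyme, had -0.35, 1.09 and -0.33 at 60 min and 0.24, 0.02 and 0.35 at 30 min. Experiment 2 of 60 min was thus the only array in which a mitochondrial member exceeded a log2 ratio of 1. *MSR1*, *MSW1*, *MSY1* and *SLM5*, which charge arginine, tryptophan, tyrosine and asparagine, had means between -0.19 and 0.26 at 60 min and between -0.08 and 0.19 at 30 min.

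A miss of the test does not show that these transcripts stayed level. The 95% intervals of the mean log2 ratio (limma) of the 12 mitochondrial genes not called at 60 min reached down to -1.07, for *MST1*, and up to 0.88, for *MSD1*. Those of the 13 genes at 30 min reached down to -0.94, for *MSM1*, and up to 0.93, for *MSF1*. A 2-fold fall was thus inside the interval of 1 of these genes at 60 min and of 0 at 30 min. All 19 cytosolic means, from -2.29 to -0.87 at 60 min and from -2.38 to -0.59 at 30 min, were negative, whereas 7 of the 13 mitochondrial means were negative at 60 min and 6 at 30 min.

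A cytosolic and a mitochondrial member of their own were present for 12 amino acids, so that enzymes of the same reaction can be set side by side. In 69 of the 72 values, 1 for each of the 12 amino acids in each array, the cytosolic ratio was the lower one. In 9 of the 12 amino acids this was so in 6 of 6 arrays. The cytosolic value of phenylalanine was the mean of *FRS1* and *FRS2*. In experiment 1 of 60 min, *FRS1* alone (-0.82) lay above *MSF1* (-0.85), and the phenylalanine difference was -0.037. That of glutamate was -0.046 in experiment 3 of 60 min. The widest differences at 60 min were those of isoleucine and asparagine. *ILS1* minus *ISM1* was -2.64, -3.05 and -2.05 at 60 min and -1.84, -1.50 and -1.52 at 30 min. *DED81* minus *SLM5* was -2.75, -2.81 and -1.98 at 60 min and -3.27, -2.25 and -1.37 at 30 min. *DPS1* minus *MSD1*, for aspartate, varied least at 60 min, with -1.92 ± 0.25 (SD, n = 3) at 60 min and -1.99 ± 0.16 (SD, n = 3) at 30 min. For serine, *SES1* minus *DIA4* was -1.71 ± 1.03 (SD, n = 3) at 60 min, or -1.13 without experiment 2, and -2.39 ± 0.48 (SD, n = 3) at 30 min. The probes of *SES1* and *DIA4* lay in the same print block, as inferred from the probe numbers. If that inference is right, a local shift of that block would have moved both alike.
The difference for methionine had the smallest mean at 60 min, an order that did not hold without experiment 2. *MES1* minus *MSM1* was -0.68 ± 0.38 (SD, n = 3) at 60 min and -0.96 ± 0.38 (SD, n = 3) at 30 min, and it was negative in 6 of 6 arrays. Without experiment 2 the 60 min difference was -0.50 for methionine, -0.42 for tyrosine and -0.20 for threonine. With print blocks centred, the 60 min difference was -0.27 for methionine and -1.66 for isoleucine. The order was turned in 1 array each for threonine (*THS1* minus *MST1* of 0.39 in experiment 1 of 60 min), tyrosine (*TYS1* minus *MSY1* of 0.74 in the same array) and lysine (*KRS1* minus *MSK1* of 0.0041 in experiment 1 of 30 min). In the other 5 arrays these differences ran from -1.88 to -0.78 for threonine, from -1.74 to -0.23 for tyrosine and from -2.78 to -0.26 for lysine. Turned orders were thus found in arrays of experiment 1 alone, and without experiment 1 of 60 min the difference was -1.33 for threonine and -1.66 for tyrosine. With 3 arrays at a time an exact test of signs cannot reach a p of 0.05, and none was made.

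**Figure D3:**
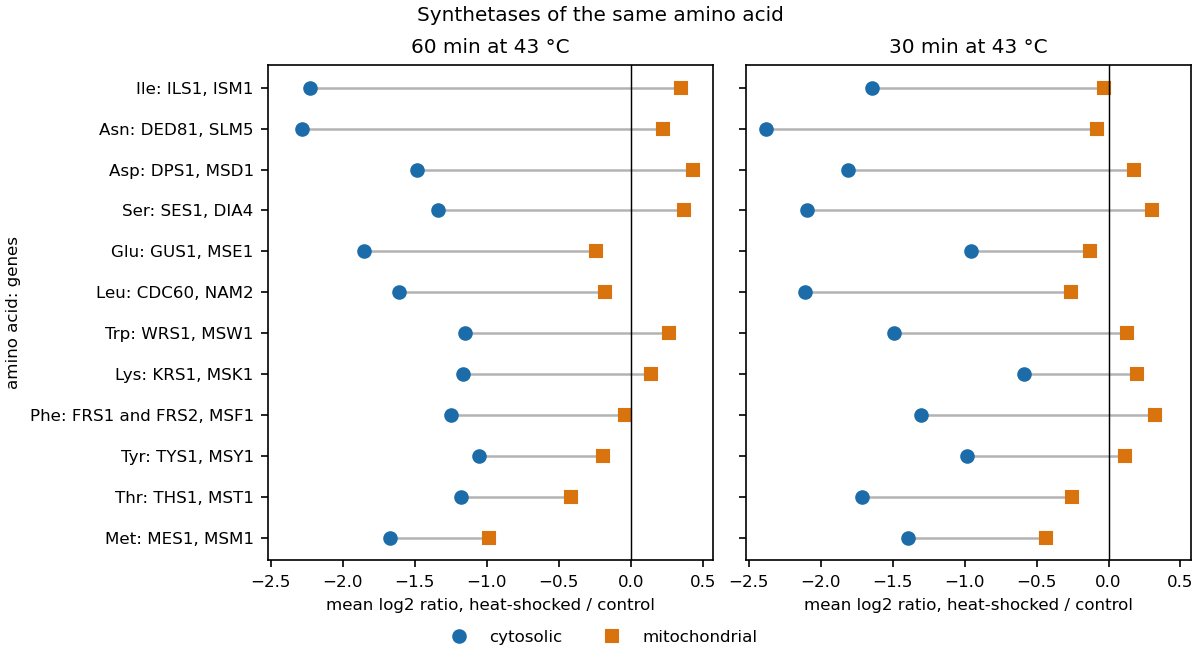
Mean log2 ratio of heat-shocked to control cells (x axis, n = 3 experiments) of the cytosolic and the mitochondrial synthetase of the same amino acid (y axis), at 60 min (left) and 30 min (right). For phenylalanine the cytosolic point is the mean of both subunit genes. The cytosolic mean lies left of the mitochondrial one for 12 of 12 amino acids at both times, with differences of -0.68 for methionine and -0.76 for threonine, the smallest, at 60 min.

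The ratios of the members at 60 min were not shown to differ from those at 30 min. In the direct test 0 of the 32 genes passed (limma), as did 0% of all features, lower or higher. At an unadjusted p under 0.05, 1 member differed, against 8.57% of all features, of which 4.37% were lower and 4.2% higher at 60 min. This was *GUS1*, with a difference of 60 minus 30 min of -0.90 (95% interval -1.76 to -0.04, adjusted p = 0.558, limma). Of the cytosolic genes, 11 had a less negative mean at 60 min and 8 a more negative one, with differences from -0.90 to 0.76. The mitochondrial differences ran from -0.55 to 0.38, with 6 genes above 0 and 7 below. The median half-width of the 95% intervals was 0.76 for the cytosolic and 0.74 for the mitochondrial genes, and a miss of the test does not show that the times were alike.

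**Figure D4:**
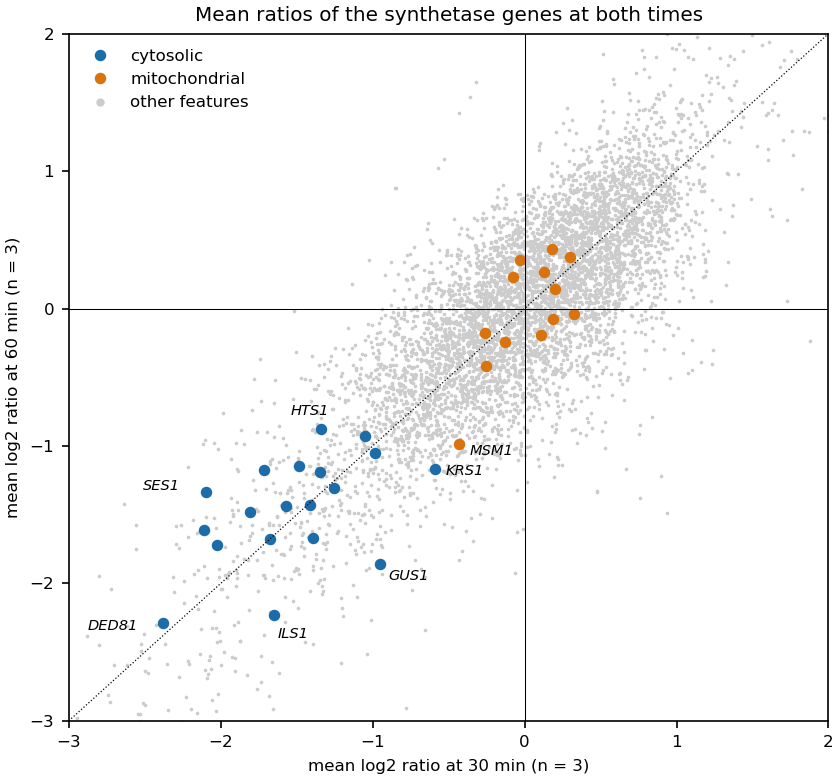
Mean log2 ratio of heat-shocked to control cells at 30 min (x axis) and 60 min (y axis), n = 3 experiments each, for the 19 cytosolic genes, the 13 mitochondrial genes and the other features. The dotted line marks equal ratios, and 107 features lie outside the axes. The cytosolic genes lie in the lower left part at both times, with *GUS1* farthest below the line (-0.90) and *SES1* farthest above it (0.76).

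Further genes of tRNA charging were taken from lists of related genes. Of 5 further synthetase genes, 4 were measured, of which 2 fell and 0 rose at each time. Of all features, 18.2% and 15.9% were called lower at 60 and 30 min, and 15.6% and 10.7% higher. The genes that fell were YDR341C, the arginyl enzyme of the cytosol, with -1.66 ± 0.41 at 60 min and -1.81 ± 0.17 at 30 min (SD, n = 3, adjusted p = 0.000337 and 0.000306, limma), and YHR020W, the prolyl enzyme of the cytosol, with -1.33 ± 0.30 and -1.64 ± 0.34 (SD, n = 3, adjusted p = 0.00131 and 0.000551). *MSR1*, the mitochondrial partner of YDR341C, had -0.07 ± 0.37 at 60 min and 0.19 ± 0.13 at 30 min (SD, n = 3). *AIM10*, a mitochondrial prolyl enzyme, had 0.32 ± 0.25 and -0.04 ± 0.16, and *GRS2*, a second glycyl gene, had 0.53 ± 0.53 and 0.58 ± 0.12 (SD, n = 3). Neither passed the test, with adjusted p of 0.242 and 0.894 for *AIM10* and of 0.103 and 0.0878 for *GRS2*. *GRS1* and *GRS2* are paralogs, and how far each probe also binds the other's cDNA was not tested.

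Mitochondria make glutaminyl-tRNA through an amidotransferase in place of a synthetase of their own. Of its 3 genes, *GTF1* rose at 60 min (1.10 ± 0.29, SD, n = 3, adjusted p = 0.00255, limma) and *PET112* fell (-0.70 ± 0.47, SD, n = 3, adjusted p = 0.0403), and neither passed at 30 min. At 60 min, 15.6% of all features were called higher and 18.2% lower. *HER2* had -0.00 ± 0.70 at 60 min and 0.41 ± 0.05 at 30 min (SD, n = 3). Of 7 translation factors of mitochondria, 1 fell and 0 rose at each time, a share close to the 18.2% and 15.9% of all features called lower. This was *TUF1*, the elongation factor that brings charged tRNA to the mitochondrial ribosome, with -1.64 ± 0.13 at 60 min and -0.97 ± 0.39 at 30 min (SD, n = 3, adjusted p = 0.000321 and 0.00825). The medians of the 7 factors were -0.06 at 60 min and 0.27 at 30 min, and the single call of *TUF1* at each time says nothing about the list.

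The general control system senses uncharged tRNA through the kinase Gcn2p, which carries a domain related to histidyl-tRNA synthetase, and acts through the activator Gcn4p. Of 4 of its genes measured, 3 fell at 60 min and 2 at 30 min, and 0 rose, beside the 18.2% and 15.9% of all features called lower. *GCN3*, a subunit of the initiation factor eIF2B, had -1.58 ± 0.32 at 60 min and -0.95 ± 0.49 at 30 min (SD, n = 3, adjusted p = 0.000728 and 0.0145, limma). *GCN20*, which acts with Gcn1p on Gcn2p, had -1.23 ± 0.56 and -1.33 ± 0.05 (SD, n = 3, adjusted p = 0.00318 and 0.00261). *GCN4* had -1.01 ± 0.46 and -0.77 ± 0.55 (SD, n = 3, adjusted p = 0.0133 and 0.0506), and *GCN2* had -0.22 ± 0.75 and 0.13 ± 0.30 (SD, n = 3, adjusted p = 0.567 and 0.748). Of 11 genes of tRNA maturation and export, 1 fell at each time, *SEN54*, a subunit of the splicing endonuclease, at 60 min (-0.78 ± 0.46, SD, n = 3, adjusted p = 0.0212) and *LHP1*, which binds new tRNA transcripts, at 30 min (-0.86 ± 0.23, SD, n = 3, adjusted p = 0.0247), and 0 rose. This is a smaller share than the 18.2% and 15.9% of all features called lower, so these calls say nothing about the list. The list had medians of -0.41 at 60 min and -0.14 at 30 min.

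The genes nearest to the array-wise medians of each set were sought among 5324 named features outside the members with a value in all 6 arrays, by Euclidean distance over the 6 log2 ratios. The 5 nearest to the cytosolic median were *PRS1* (distance 0.246), *RPL34A* (0.265), *DPH2* (0.482), *CDC42* (0.508) and *YPQ1* (0.543). The 5 nearest to the mitochondrial median were *UBP5* (0.225), *TMH18* (0.233), *LCB5* (0.279), *RDS2* (0.304) and *MRM2* (0.337). The 6 values of a gene share their arrays, and the distances are a description only.

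Probe numbers, which fall into groups taken here as print blocks, were used in place of spot positions, which no label gives. The median log2 ratio of a print block ranged from -1.01 to 1.09 in experiment 1 of 60 min and from -0.54 to 0.47 in experiment 3 of 30 min, the widest and the narrowest ranges of the 6 arrays. The blocks of the cytosolic probes had medians of -0.21 to -0.07 over the arrays, and those of the mitochondrial probes medians of -0.12 to 0.15. With every block centred on its own median, the gap between the sets was -1.33 at 60 min and -1.49 at 30 min, and 18 cytosolic genes fell at each time. Of the 6095 features of this setting, 17.9% were called lower at 60 min and 18.3% at 30 min. The number of mitochondrial genes that fell at 60 min was then 2, *MSM1* and *MST1* (adjusted p = 0.0320 for *MST1*, limma), and *GUS1* no longer passed at 30 min (adjusted p = 0.0984). No dye swap is described, and the part of a dye bias in these ratios was not tested.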

How the data were processed

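Per the labels and methods, the authors scanned each 2-colour cDNA array at 2 laser powers, quantified spots with GenePix and normalized ratios by negative control spots in Chip Cleanser. The deposited values are log ratios, read as log2. The base is not given in the sources used here and was inferred from how many genes passed the methods' 2-fold rule at 30 min (266 up and 613 down with base 2, 844 and 1022 with natural logarithms). Both scans of an array held identical values and were counted once. How background was treated is not given in the sources used here, and signal levels were not used, so precision is stated only through the 3 arrays of each time.

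Of 6162 measured probes, 716 have no symbol in the platform annotation. Duplicate rows (203 probes sharing their values within 78 groups) were merged, 18 genes with distinct probes were averaged, and at least 2 values at each time were required, which left 6019 features. Probe numbers form 192 groups of 36, taken as print blocks. Each time against 0, and 60 against 30 min, were tested in 1 model with limma 3.58.1 (R 4.3.3), with Benjamini-Hochberg adjustment over all features and a threshold of 0.05. The fit was also run on simulated data with independent arrays and the same spread at both times. That setting differs from these data, so it is no support for the calls given here. Experiment numbers are not stated to mark a shared culture or day, so they were not treated as pairs in the main fit. Deviations of same-numbered arrays correlated at -0.04, 0.12 and 0.35, which does not settle whether they were paired. Array values are given for members at either end of each set, called mitochondrial genes, uncalled cytosolic genes and amino acids whose order turned. *CRS1*, *GCN1* and *LOS1* of the context lists matched no probe. Members and lists were chosen with earlier results of these data known. Alternatives covered centring, scaling, filters, call rules, membership, the fit and each experiment left out, and leaving out an experiment of both times was added after the data were seen.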

Additional observations from a re-analysis of the deposited data

How the results depend on the processing

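Under 21 alternatives of the fit, the counts of cytosolic genes that fell stayed within 1.5 times of 18 at 60 min and 17 at 30 min, at 12 to 19 and 14 to 19, while the share of all features called lower ran from 8.99% to 19.5% at 60 min and from 6.93% to 28.9% at 30 min. The gap between the sets, cytosolic minus mitochondrial median, stayed below 0, from -1.72 to -1.07 at 60 min and from -1.72 to -1.41 at 30 min. With a ratio over 2-fold asked in all 3 experiments, 8 cytosolic and 0 mitochondrial genes were down at 60 min, and 15 and 0 at 30 min. The share of all features down by this stricter rule was not counted. The 1 mitochondrial gene that fell at 60 min became 2 with print blocks centred, and 0 without experiment 2 or 3 of both times and with a mean ratio over 2-fold asked beside the adjusted p. With the experiment number as a replicate block, 19 cytosolic genes fell at 60 min and 18 at 30 min, *ARC1* being added at both times, 1 mitochondrial gene fell at 60 min, and no other call of a member changed. Of the 36 calls, 26 were kept in all alternatives of the fit, and 0 turned sign. With each time fitted alone, *TYS1* and *HTS1* no longer passed at 60 min (adjusted p = 0.0512 and 0.0558, limma), and with array weights *HTS1* and *KRS1* did not (0.0557 and 0.0782). *KRS1* passed at 30 min with print blocks centred (0.0240) and with array weights (0.0144), and *ARC1* passed there in 7 alternatives (adjusted p from 0.00102 to 0.0420).

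Signs turned only among 14 values of mitochondrial genes that had not passed. With print blocks centred, the log2 ratios at 60 min were 0.19 for *MSF1*, -0.0053 for *MSK1*, 0.072 for *MSR1*, -0.19 for *MSW1*, 0.24 for *MSY1* and -0.15 for *ISM1*, and those at 30 min were 0.11 for *ISM1* and 0.013 for *SLM5*. With array weights, *MSF1* had 0.066 at 60 min. With 1 experiment left out, the values at 60 min ran from -0.54 to 0.13 for *MSE1*, from -0.30 to 0.37 for *MSF1*, from -0.34 to 0.38 for *MSK1*, from -0.19 to 0.14 for *MSR1*, from -0.77 to 0.071 for *MST1*, from -0.33 to 0.031 for *MSY1*, from -0.40 to 0.0014 for *NAM2* and from -0.033 to 0.38 for *SLM5*. At 30 min they ran from -0.024 to 0.30 for *MSW1*, from -0.083 to 0.32 for *MSY1* and from -0.099 to 0.040 for *ISM1*. Leaving out the same experiment at both times gave the same values. Differences between synthetases of the same amino acid that moved by over 1.5 times with 1 experiment left out, beside those given above for serine, threonine and tyrosine, were at 60 min those of phenylalanine (-0.64), lysine (-0.57) and tryptophan (-0.92) without experiment 2, tyrosine (-0.50) without experiment 3 and leucine (-0.88) without experiment 1, and at 30 min that of lysine (-1.18) without experiment 1. The cause was not tested.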
